A study of Homo sapiens with 3 samples.

Results

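The control library of 95D, an established line of human lung cancer cells, was taken by itself, and its listed reads were sorted by gene and by RNA class. All 14338 rows of the control list were used. Each row pairs a gene identifier with a value in RPM, reads per unit of sequencing depth, and gives no coordinates. Rows of neighbouring or overlapping genes with the same value were taken as 1 region and counted once, which left 12303 regions, all of which were used. They named 5932 gene identifiers, and each region was assigned to 1 leading gene, 4729 genes in all. Both columns of control values in the table of the whole series gave nearly the same listed total as the sample's own list.

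The series holds 3 libraries of 95D cells with wild-type (WT) genotype, 1 each from control, glucose-deficient and glutamine-deficient culture. Cells were grown in DMEM with 10% fetal bovine serum and antibiotics. The control cells were kept in control conditions for 48 hours. The protocol given for every library is a pulldown with the long non-coding RNA DAMER, made in vitro and carrying biotin at its 3′ end, 50 pmol of it on streptavidin beads held with lysate for 1 hour at 4 °C. Since the titles speak only of RNA sequencing, the labels do not settle whether the control library is captured or total RNA. Ribosomal RNA was depleted and paired reads of 150 nt were sequenced. The 2 deprived libraries were not used here. With 1 control library there is no replicate, so no p-value is given, and every interval is a 95% interval that covers counting error only, since duplicate reads are not independent molecules.

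A cell's RNA is dominated by ribosomal RNA, and once that is removed the remainder is a mixture of messenger RNAs, mitochondrial transcripts and abundant structural RNAs. RNA polymerase III makes several of the structural RNAs. 7SK holds the elongation factor P-TEFb in an inactive state, RPPH1 and RMRP are the RNA parts of RNase P and RNase MRP, which process transfer and ribosomal RNA precursors, and 7SL is the RNA of the signal recognition particle. Mitochondria transcribe their own small genome into 2 ribosomal RNAs and the messages of respiratory chain subunits. MALAT1 and NEAT1 are long non-coding RNAs of nuclear speckles and paraspeckles. Processed pseudogenes are copies of spliced messages inserted back into the genome, so a read from a message can match both.

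The 3 structural RNAs below held the most reads of their class, and 7SK the most of any gene named here. They are printed from the GENCODE release 29 transcripts, 5′ to 3′, 7SK and RPPH1 as bases 1 to 300 and RMRP whole. The capitals in 7SK mark the 3 copies of GATC, a palindrome that reads the same on both strands. In 5.88% of the 192779 GENCODE transcripts of 300 bases or more, the first 300 bases held at least 3 copies. 7SK lies at chr6:52995620-52995950 on the plus strand, RPPH1 at chr14:20343075-20343407 on the minus strand and RMRP at chr9:35657754-35658017 on the minus strand (GRCh38). Each is annotated as a gene of 1 exon with no coding sequence.
7SK: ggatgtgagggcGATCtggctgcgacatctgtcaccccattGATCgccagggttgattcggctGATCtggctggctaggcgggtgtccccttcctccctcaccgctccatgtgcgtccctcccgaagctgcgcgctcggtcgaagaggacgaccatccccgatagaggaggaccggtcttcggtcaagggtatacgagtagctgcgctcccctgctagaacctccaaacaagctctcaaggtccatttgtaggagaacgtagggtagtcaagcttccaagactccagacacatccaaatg
RPPH1: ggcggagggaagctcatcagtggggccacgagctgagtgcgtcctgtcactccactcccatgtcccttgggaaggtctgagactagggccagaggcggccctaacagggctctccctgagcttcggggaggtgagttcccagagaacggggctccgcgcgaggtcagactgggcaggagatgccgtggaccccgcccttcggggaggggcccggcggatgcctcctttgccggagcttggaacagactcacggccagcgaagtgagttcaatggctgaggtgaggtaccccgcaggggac
RMRP: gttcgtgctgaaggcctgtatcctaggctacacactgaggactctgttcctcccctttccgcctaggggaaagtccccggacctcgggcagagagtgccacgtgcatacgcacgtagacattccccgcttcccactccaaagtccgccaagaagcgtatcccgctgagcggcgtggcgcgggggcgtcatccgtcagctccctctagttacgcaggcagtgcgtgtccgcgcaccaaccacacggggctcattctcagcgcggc

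The listed regions held 221765 RPM, 22.2% of the library, and reads outside the list are not described here. The values moved in steps of 0.132 RPM, taken as the worth of a lone read, and a full fragment was worth 0.264 RPM, which puts the whole library at 3781862 fragments. A count of 0 fragments would allow up to 0.793 RPM. The median region stood at 7.93 RPM, or 29.5 fragments. All but 7 regions had at least 9.5 fragments, and a gene that is not listed may have been below such a limit, so absence from the list does not show that a gene was silent. The list was uneven: 17 regions of at least 1000 RPM held 25.9% of the listed RPM and 125 regions of at least 100 RPM held 36.5%. Leaving out the regions that named no gene, 7 genes held 25% of the RPM, 213 held 50% and 2237 held 90%.

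Protein-coding genes other than ribosomal protein and histone genes made up most of the list. They held 57.3% (57.2 to 57.4) of the listed RPM in 10695 regions, 86.9% of all regions. Mitochondrial messages held 10.97% (10.90 to 11.04) in 7 regions, and RNA polymerase III structural RNAs held 9.45% (9.39 to 9.51) in another 7. Those 14 regions together held 20.4% of the listed RPM. Long non-coding RNAs held 10.1% (10.0 to 10.1) in 259 regions and pseudogenes held 4.54% (4.50 to 4.59) in 440. Ribosomal protein genes held 1.47% (1.445 to 1.497), mitochondrial ribosomal RNA 0.622%, replication-dependent histones 0.568%, small nucleolar and Cajal body RNAs 0.428%, spliceosomal RNAs 0.0238% and other annotated RNAs 0.238%. With shared regions split equally over classes, small nucleolar and Cajal body RNAs held 0.188% and other annotated RNAs 2.53%. The highest of the other RNAs was the identifier ENSG00000291336 with 307 RPM. It also shared regions with histone genes, among them H1-4. The highest region of this class had 177 RPM, the same value as the region of the histone gene H4C5. An identifier without coordinates joined only the nearest row of equal value, so that region may be counted in both classes. Intervals are exact Clopper-Pearson intervals. Regions that named no gene held 4.27%, and 1 of these 691 regions had 1888 RPM where the next had 288.

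**Figure D1:**
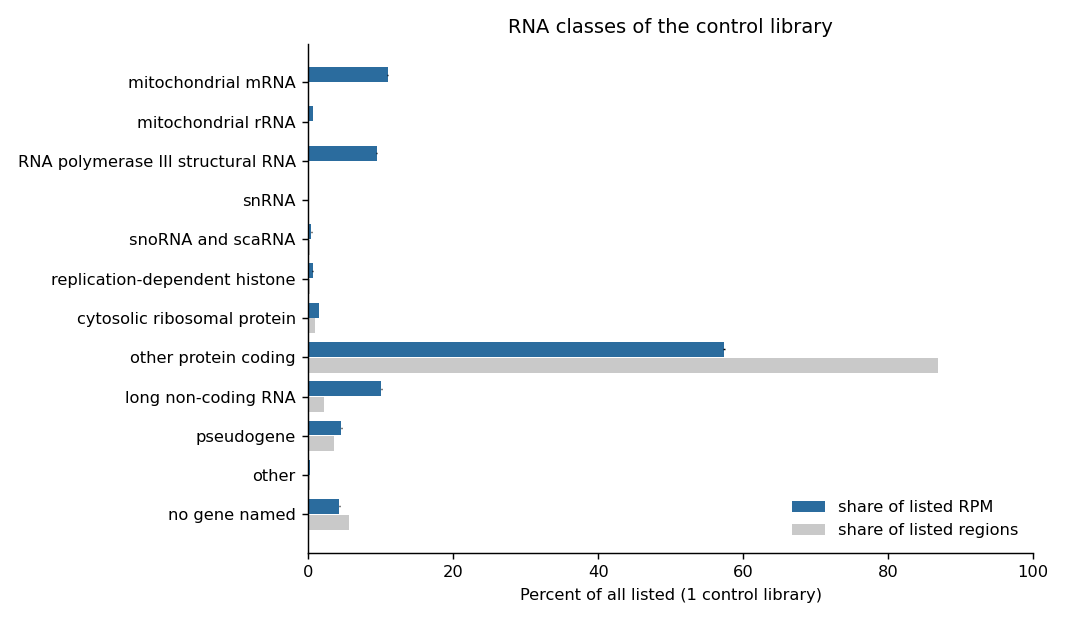
Share of listed RPM (blue, with 95% counting intervals) and share of listed regions (grey) for each RNA class of the 1 control library, on a linear axis in percent. Mitochondrial messages and RNA polymerase III RNAs take 10.97% and 9.45% of the RPM from 7 regions each, while other protein-coding genes hold 86.9% of the regions.

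Among the RNA polymerase III products, 7SK stood alone at the top. Its single region, which is also listed under the overlapping entry RN7SK, held 14609 RPM (14487 to 14731), 6.59% of the listed RPM and 69.7% of its class. RPPH1 held 2473 RPM (2423 to 2524), RMRP 1870 RPM (1826 to 1914) and RN7SL1 1519 RPM (1480 to 1559). The order also held per length: 44136 RPM per kb of exon for 7SK, 7427 for RPPH1, 7083 for RMRP and 5080 for RN7SL1. RN7SL2 and RN7SL3, further copies of the 7SL gene, held 248 and 158 RPM. Reads that fit several 7SL copies may have been split between them, so these values are uncertain one by one. The single region of RPPH1 was also listed under ENSG00000259001, and that of RN7SL2 under ENSG00000282885. RNY1, a small RNA bound by the Ro60 protein, held 79.5 RPM. Of the 22 names on the class list, 14 were not listed, among them the other Y RNAs, the vault RNAs and U6.

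Mitochondrial messages were listed for 8 of 13 genes. MT-CO1, a subunit of cytochrome c oxidase, held 7736 RPM (7647 to 7825) over 3 regions of 3013, 2942 and 1782 RPM. MT-ATP6, MT-ATP8 and MT-CO3 lie next to each other and shared 1 region of 5833 RPM (5756 to 5910). MT-ND4 and MT-ND4L, subunits of respiratory complex I, shared 1 region of 4991 RPM (4920 to 5062). MT-CO2 held 4230 RPM (4164 to 4296) and MT-ND1 1540 RPM (1501 to 1580). Per kb of exon the levels of the genes with a region of their own ran from 1611 RPM for MT-ND1 to 6184 RPM for MT-CO2, with MT-CO1 at 5017. MT-ND2, MT-ND3, MT-ND5, MT-ND6 and MT-CYB were not listed. The ribosomal RNAs MT-RNR2 and MT-RNR1 stood at 531 and 579 RPM per kb, below each of the 8 listed messages, in a library whose protocol depletes ribosomal RNA. The part of that depletion in their level was not tested.

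**Figure D2:**
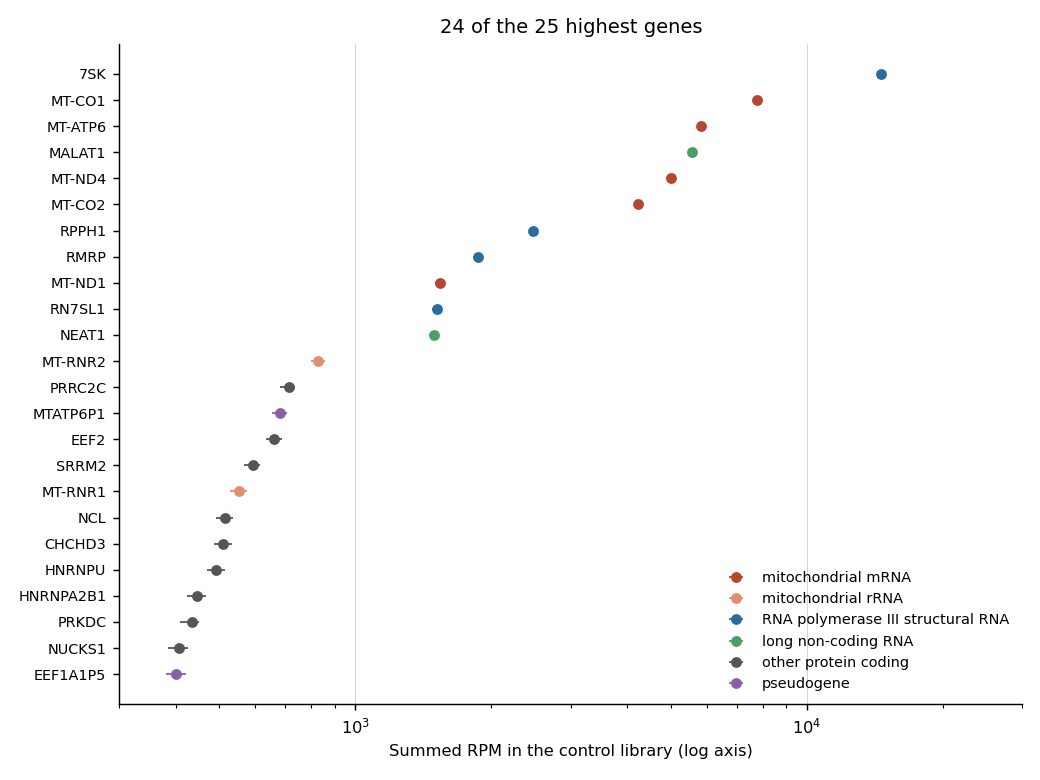
Summed RPM of 24 of the 25 highest genes on a log axis, coloured by RNA class, with bars for the 95% counting interval (hidden by the point where narrow). 7SK stands at 14609 RPM, the next 10 genes lie between 1496 and 7736, and the highest coding gene outside mitochondria is PRRC2C at 712.

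MALAT1 led the named long non-coding RNAs with 5570 RPM (5494 to 5645), 24.9% of its class. It had 6 regions, from 3434 down to 143 RPM, and each was also listed under its antisense partner TALAM1. No source used here says whether reads were counted by strand, so the pair cannot be told apart. NEAT1 held 1496 RPM (1455 to 1533) over 15 regions. Its highest region had 611 RPM and named 4 genes, NEAT1 among them. The other 14 had 36.5 to 119 and named NEAT1 alone. Next came the identifier ENSG00000278996 on chromosome 21, with 311 RPM. Per kb of exon MALAT1 stood at 631 RPM and NEAT1 at 65.7. Next within the fixed list were NORAD, which binds Pumilio proteins in the cytoplasm, at 14.8 and ZFAS1, a snoRNA host, at 7.72, while ENSG00000278996, which is not on it, stood at 124. Of 24 long non-coding RNAs on the fixed list, 12 were listed, and H19, MEG3, PVT1 and HOTAIR were not.

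Small nuclear and nucleolar RNAs were few. Of 18 spliceosomal RNAs of RNA polymerase II on the fixed list 4 were listed: RNU4-2 at 20.2 RPM (15.8 to 25.2), RNU12 at 10.7, RNU4-1 at 9.12 and RNU11 at 7.40. No U1, U2 or U5 gene of the fixed list was among them, but the variant U1 gene RNVU1-14, which is not on it, was listed at 5.29 RPM (3.23 to 8.17). SNORA73B and SNORA73A, the U17 RNAs of ribosomal RNA processing, held 203 RPM (189 to 218) and 175 RPM (162 to 189), and both lie within the host gene SNHG3. SCARNA7, a guide RNA of Cajal bodies, held 130 RPM (119 to 142) and shared its region with the host gene KPNA4. Regions of this kind cannot be divided between the small RNA and its host from these values.

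Replication-dependent histone genes were listed for 30 genes in 31 regions. H1-4, a linker histone, held 198 RPM (184 to 212), H4C5 177 RPM (164 to 191) and H2BC12 161 RPM (148 to 174). Per kb of exon H2BC12 stood highest of the coding genes outside mitochondria at 422 RPM, with H1-4 at 262, H4C5 at 119, H1-2 at 103 and H4C4 at 99.6. This order depends on the annotated length, which was 381 nt for H2BC12, 312 nt for H4C4 and 1487 nt for H4C5. The regions of H1-4 and H4C4 were also listed under ENSG00000291336. Replication-dependent histone messages are known for ending in a stem-loop in place of a poly(A) tail. The histone stem-loop motif was found in the GENCODE transcripts of 15 of the 29 listed histone genes that have one there. It was found in 34 of 19630 other coding genes (0.173%), which still include histone genes that led no listed region. For those genes only the longest coding transcript was searched, against all transcripts for the 29. The other 14 entries held no match, and several of those are annotated with the coding sequence alone. The annotated transcripts that hold the motif run on past it, by 1022 nt in H4C5, 39 nt in H2BC5 and 1479 nt in H2BC18. The stem-loops of 3 listed genes are shown, with the stems in capitals and the loop in lower case.
H4C5: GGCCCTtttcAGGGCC
H2BC5: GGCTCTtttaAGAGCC
H2BC18: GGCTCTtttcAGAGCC

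PRRC2C, EEF2 and SRRM2 led the other coding genes. PRRC2C, an RNA-binding protein of stress granules, held 712 RPM (683 to 737) in 23 regions. EEF2, the translocation factor of translation, held 662 RPM (635 to 687) in 9 regions, and SRRM2, a scaffold of nuclear speckles, 592 RPM (567 to 616) in 10. NCL, the nucleolar protein nucleolin, held 515 RPM (491 to 537). HNRNPU and HNRNPA2B1, RNA-binding proteins of the nucleus, held 493 and 446 RPM. Of the HNRNPU value, 231 RPM lay in regions also listed under COX20 or ENSG00000273175. PRKDC, the DNA-dependent protein kinase, held 435 RPM (409 to 451) and NUCKS1, a chromatin protein, 406 RPM. The 10 highest coding genes held 3.94% of the coding RPM and 515 of the 4151 listed coding genes held 50%, so no coding gene outside mitochondria had a share like that of 7SK. Per kb of exon the listed coding genes had a median of 3.06 RPM, with the 5th percentile at 0.569 and the 95th at 24.5. Outside the histones, the highest named here were RPL8 at 169, EEF2 at 164, CHCHD3 at 149, the chemokine CCL5 at 139, RPS25 at 118 and the cytokine MIF at 112. All 3 regions of CCL5 and both of MIF were also listed under other identifiers, and most of the RPM of CHCHD3 is described with the pseudogenes.

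Genes differed in how their RPM was spread. Of the 4151 coding genes, 1828 had 1 region, 568 had 5 or more and 108 had 10 or more. UBR4, a ubiquitin ligase, had the most with 38, followed by PRKDC with 37, the ubiquitin ligase HUWE1 with 27, DYNC1H1, the heavy chain of cytoplasmic dynein, with 24 and PRRC2C with 23. The 38 regions of UBR4 had a median of 6.87 RPM and none passed 31.1, and those of PRKDC had a median of 9.12 and none passed 28.3. In PRRC2C the 3 highest regions had 216, 117 and 102 RPM, and the others 36.8 or less. EEF2 had 9 regions of 32.9 to 165 RPM. Across the 4146 coding genes with a known length, the Spearman correlation of the number of regions was 0.82 with summed RPM, 0.26 with the number of exons and 0.23 with exon length. These describe genes of 1 library, which are not independent replicates, and a gene's RPM is itself the sum over its regions.

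**Figure D3:**
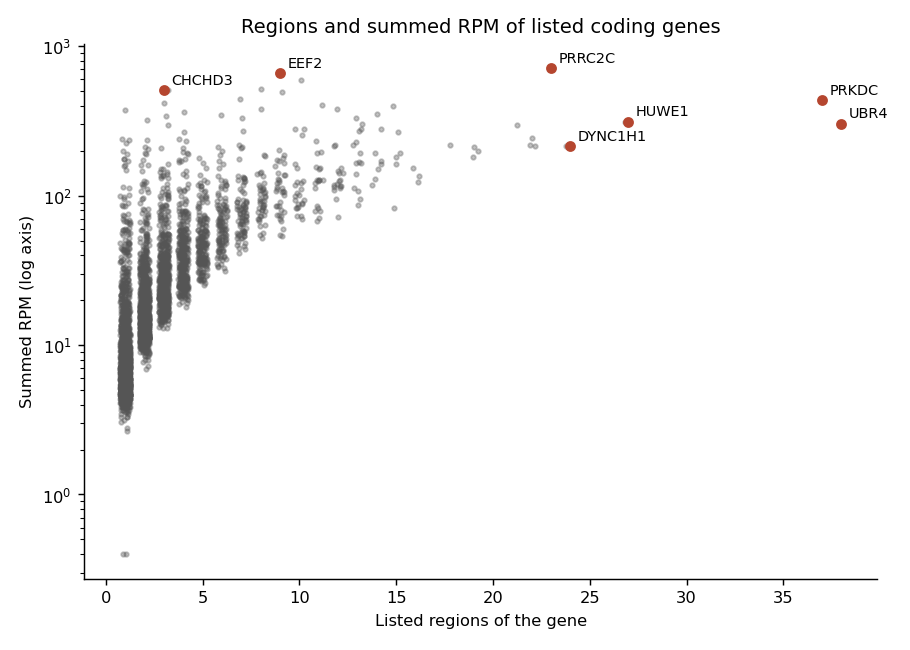
Each point is 1 listed coding gene, with its number of listed regions on the linear x axis (points spread sideways) and its summed RPM on the log y axis. UBR4 reaches 38 regions with 304 RPM, while CHCHD3 reaches 510 RPM with 3 regions.

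The fixed gene lists describe parts of what the coding genes held. Their members were chosen with earlier results of these data known, so a high listed share is no evidence of enrichment. Genes of splicing and RNA binding were listed in full, 40 of 40. Of all annotated autosomal coding genes, 20.9% led a listed region, while list members are counted with any region listed under them. The splicing and RNA-binding genes had a median of 13.6 RPM per kb of exon, against 3.06 for listed coding genes, and 36 of 40 lay above that. NCL stood at 74.3 RPM per kb, YBX1, an RNA-binding cold shock protein, at 55.2, HNRNPA2B1 at 48.1 and SRRM2 at 44.7. DNA replication had 29 of 31 listed at a median of 7.601, led by the sliding clamp PCNA at 74.3, the helicase subunit MCM3 at 33.3, RPA2 at 24.3 and the methyltransferase DNMT1 at 22.1. Chromatin regulators had 32 of 35 listed at a median of 4.69, led by the cohesin subunit SMC1A at 36.4, PRKDC at 28.2, the cohesin subunit SMC3 at 21.8 and SMARCC1 of the SWI/SNF complex at 19.97. Mitosis had 24 of 30 at a median of 5.81, with NUSAP1 at 39.04, SMC4 at 17.8, CENPF at 15.6 and TPX2 at 14.9. A member's level here counts each region listed under it, shared or not.

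Genes of protein synthesis and folding were also mostly listed. Of the aminoacyl-tRNA synthetases, which charge transfer RNAs, 18 of 20 were listed at a median of 14.1 RPM per kb of exon, led by GARS1 at 55.3, SARS1 at 46.4, AARS1 at 31.2 and YARS1 at 31.2. HARS1 was not listed. Of the targets of ATF4 and the amino acid response, 26 of 30 were listed at a median of 13.1. The phosphatase subunit PPP1R15A stood at 95.6, ATF4 itself at 94.5, the translation repressor EIF4EBP1 at 62.5 and the serine synthesis enzyme PSAT1 at 29.9. TRIB3 and CHAC1 were not listed. Translation factors had 39 of 45 listed at a median of 6.83 (12.1 per kb of the longest transcript), and after EEF2 came EIF3A at 56.1, EIF3I at 44.2 and EEF1G at 40.6. The 5 EIF2B subunits were among those not listed. Endoplasmic reticulum chaperones had 16 of 20 at a median of 10.4, led by HSPA5 at 67.8, CANX at 56.6, CALR at 54.1 and HSP90B1 at 33.5. Cytosolic chaperones had 19 of 22 at a median of 9.73, led by HSPA4 at 37.3, CCT7 at 33.9, HSP90AB1 at 32.4 and CCT4 at 31.4. The ubiquitin and proteasome list had 28 of 37 at a median of 5.85, led by the ubiquitin gene UBB at 109. The only region of UBB was also listed under ENSG00000265401.

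Energy metabolism was listed in part. Nuclear genes of oxidative phosphorylation had 46 of 75 listed at a median of 4.74 RPM per kb of exon, led by NDUFA1 at 78.4, NDUFS5 at 34.0, ATP5F1B at 27.5 and COX6B1 at 20.2. None of the 4 subunits of succinate dehydrogenase, SDHA to SDHD, was listed. Glycolysis had 13 of 21 at a median of 10.1, with GAPDH at 64.3, ALDOA at 27.3, and ENO1 and LDHB next. The glucose transporters SLC2A1 and SLC2A3 and the phosphofructokinase genes PFKL, PFKM and PFKP were not listed. Cytoskeleton and motor genes had 29 of 35 at a median of 7.87, led by ACTG1 at 80.0, ACTB at 54.7, TUBB at 47.8 and TUBA1B at 42.4. The snoRNA hosts had 14 of 24 at a median of 7.82, led by SNHG3 at 92.6. Its value comes from 2 regions, both shared with SNORA73B or SNORA73A, so SNHG3 had no listed region of its own. Per kb of the longest transcript instead, the median of glycolysis was 21.7 and that of the snoRNA hosts 16.2.

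Genes of adhesion and matrix had the lowest listed share of the 23 fixed lists, 20.6%. That is near the 20.9% of annotated autosomal coding genes that led a listed region, so it does not stand out as a low share among coding genes. These shares count differently, since a list member needs only a region listed under it, shared or not. Of 34 adhesion and extracellular matrix genes 7 were listed, at a median of 0.628 RPM per kb of exon (1.57 per kb of the longest transcript), and 4 had a region at 5 RPM or above. Only 2 of the fixed lists had a median below that of all listed coding genes, this one and growth factor signalling. The laminin chain LAMC1 stood at 4.70, COL6A1 at 3.19, ITGB1 at 2.79 and ITGA5 at 0.628. FN1, CD44, CDH1, CDH2 and THBS1 were not listed. Growth factor receptors and signalling had 19 of 35 at a median of 2.01, led by the transcription factors MYC at 49.9 and JUN at 38.2, with NRAS at 6.57 and CDK4 at 5.05. EGFR, ERBB2, AXL and CCND1 were not listed. Interferon-stimulated genes had 12 of 28 at a median of 10.8. IFIT2 stood at 82.7 and IFIT3 at 71.7, ISG15 at 18.1 and HLA-C at 17.7, while MX1, OAS1, STAT2 and IRF1 were not listed.

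**Figure D4:**
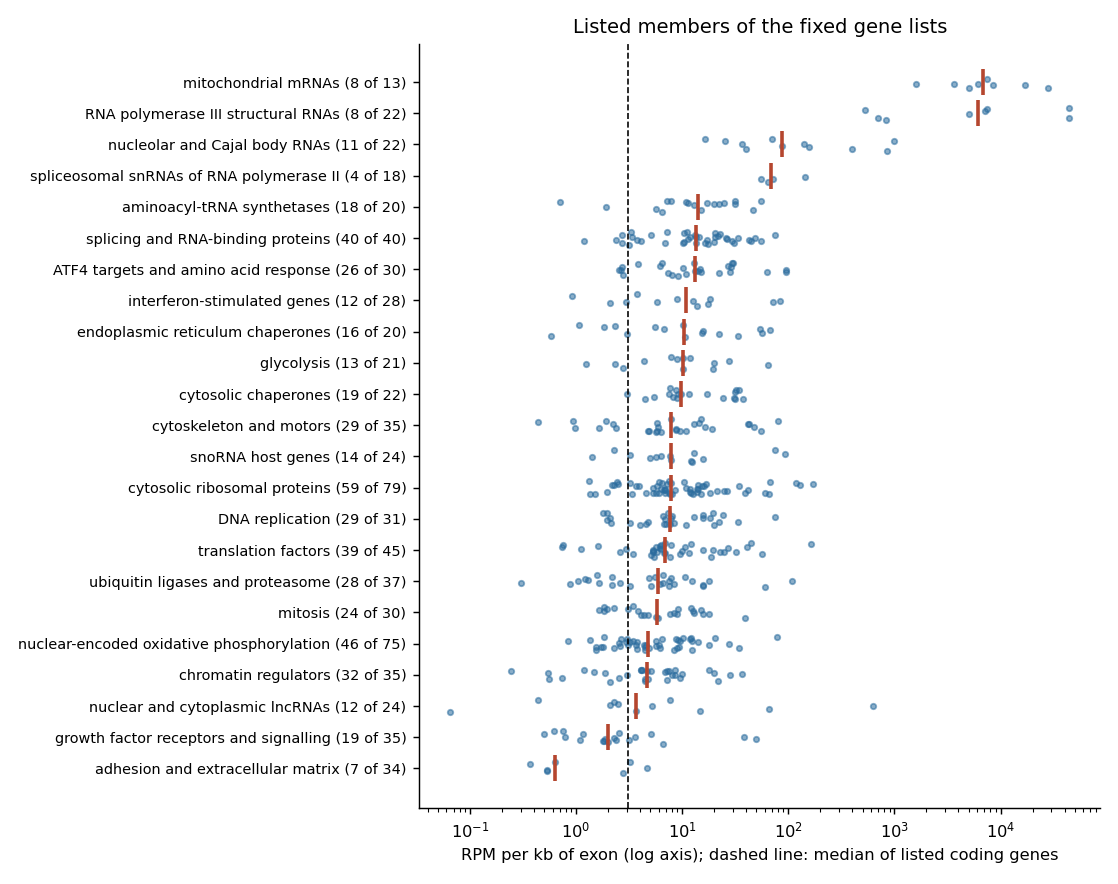
RPM per kb of exon (log axis) of every listed member of the 23 fixed lists, with the number listed of the number on the list. Red bars are list medians, and the dashed line is the median of listed coding genes, 3.06. The medians of the mitochondrial and RNA polymerase III lists are 6812 and 6081, with a region shared by several members counted under each. With such regions counted once, under the leading gene, the class medians are 5017 and 5080. Lists of nuclear coding genes have medians of at most 14.1, and adhesion and matrix genes lie lowest with 7 of 34 listed.

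The labelled cell type was set against 52 markers, of which 6 were listed. VIM, the intermediate filament of mesenchymal cells, held 77.7 RPM (68.6 to 86.6) in 4 regions. ZEB1 and SNAI2, transcription factors of the mesenchymal state, held 5.16 RPM (3.02 to 7.85) and 6.35 RPM (4.07 to 9.44). These were 3 of 7 mesenchymal markers, and CDH2, FN1, ZEB2 and TWIST1 were not listed. KRT8 was the 1 listed epithelial keratin, at 6.48 RPM (4.07 to 9.44), and EPCAM, CDH1, KRT7, KRT18 and KRT19 were not listed. None of 6 alveolar markers (SFTPA1, SFTPA2, SFTPB, SFTPC, NAPSA, NKX2-1) and none of 4 airway markers was listed. Nor was any of 6 fibroblast, 5 endothelial or 4 erythroid markers. CSF1R, a receptor of macrophages, held 10.3 RPM (7.11 to 13.8), and NCAM1, a neural adhesion molecule, 16.8 RPM (12.8 to 21.3), each in 1 region, and that of CSF1R was also listed under the pseudogene RPL7P1. PTPRC and the neuroendocrine markers CHGA, SYP and INSM1 were not listed. No listed marker is one of the lung markers, and the list cannot show absence.

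Some of the listed regions carried the names of pseudogenes. Of the 12303 regions 741 named one, with 18240 RPM or 8.23% of the listed RPM, and 679 of them were annotated as processed. Of these regions, 235 were also listed under a coding gene and counted with it above. For 152 coding genes every listed region named a pseudogene too. PLEKHA7, a protein of cell junctions, was listed for 375 RPM (356 to 395) in 1 region that it shares with RPL36AP37, a copy of the ribosomal protein gene RPL36A. TAOK3, a protein kinase, was listed for 241 RPM (225 to 257) with RPS2P5, and FRAS1, an extracellular matrix protein, for 171 RPM (158 to 185) with SERBP1P5. FAM172A was listed for 158 RPM with NPM1P27 and MAP3K13 for 150 RPM with RPL4P4. NUDCD3 had 313 RPM in a region shared with RPL32P18 and 6.08 RPM elsewhere, and GOLGA3 had 196 RPM in a region shared with RPS11P5 and 10.4 RPM elsewhere. CHCHD3, a protein of the mitochondrial inner membrane, had 478 of its 510 RPM in regions shared with the processed pseudogene ENSG00000283041. Of that, 447 RPM lay in 1 region. For these genes the RPM cannot be divided between the coding gene, the pseudogene and the gene from which the pseudogene was copied.

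The pseudogenes with the most RPM were near-exact copies. Of the 12 highest with a parent known by name, each had 1 exon block, while the parents of the 11 nuclear ones had 4 to 12 exons in their longest form. Aligned with blastn to the longest coding transcript of the parent, identity ran from 94.8% (RPS11P5) to 100% (RPL36AP37, over all its 321 bases). The alignments of RPS2P5 and RPL26P19 covered 69.9% and 71.0% of the pseudogene, the others all of it. EEF1A1P5, on chromosome 9, differed from EEF1A1 at 4 of 1389 bases. RPL32P18, on chromosome 7, differed from RPL32 at 7 of 408. MTATP6P1, a copy of mitochondrial sequence on chromosome 1, differed from MT-ATP6 at 10 of 681. The list gives no coordinates, so the place of the reads within a message is not known. The first 120 coding bases are shown for these pairs as an example, with capitals at differing bases. EEF1A1 and its pseudogene are identical there, RPL32 and its pseudogene differ at 2 bases and the mitochondrial pair at 1.
EEF1A1 and EEF1A1P5: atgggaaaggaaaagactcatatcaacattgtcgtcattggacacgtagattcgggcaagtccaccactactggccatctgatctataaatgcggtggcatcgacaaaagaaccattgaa
RPL32: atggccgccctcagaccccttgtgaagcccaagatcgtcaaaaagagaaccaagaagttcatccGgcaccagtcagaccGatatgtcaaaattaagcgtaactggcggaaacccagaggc
RPL32P18: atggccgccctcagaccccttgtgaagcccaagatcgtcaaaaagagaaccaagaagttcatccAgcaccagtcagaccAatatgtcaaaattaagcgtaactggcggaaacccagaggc
MT-ATP6: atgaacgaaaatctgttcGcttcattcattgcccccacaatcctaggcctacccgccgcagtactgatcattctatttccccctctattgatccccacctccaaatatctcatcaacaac
MTATP6P1: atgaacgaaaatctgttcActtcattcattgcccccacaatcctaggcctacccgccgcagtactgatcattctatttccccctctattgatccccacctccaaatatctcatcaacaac

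The pseudogenes often held more RPM than the genes they copy, as sums over regions and not per length. EEF1A1, the elongation factor that delivers transfer RNA to the ribosome and usually among the most abundant messages, held 31.7 RPM (26.1 to 37.7) in 2 regions. Its pseudogene EEF1A1P5 held 402 RPM (382 to 423) in 1, and the intervals do not overlap. Per kb of exon EEF1A1P5 stood at 289 RPM. RPL32 held 26.7 RPM (21.5 to 32.2) and RPL32P18 313 RPM (295 to 331). RPL36A was not listed, against 375 RPM on RPL36AP37. MTATP6P1 held 680 RPM (654 to 706), less than the 5833 RPM of the region of MT-ATP6. HNRNPC, an RNA-binding protein, held 217 RPM against 174 RPM on HNRNPCP2, so this pair had the opposite order. Among the other pseudogenes listed with no coding gene, RPL13AP5 held 152 RPM and RPL26P19 150 RPM.

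Ribosomal protein genes showed this across the family. Of 79 genes of the cytosolic ribosome 59 were listed, with a median of 7.76 RPM per kb of exon, and together they held 3348 RPM. Pseudogenes named after 60 of them held 5021 RPM in 101 regions. For 48 of the 79 the pseudogenes held more RPM than the gene, and for 19 only a pseudogene was listed, such as RPL23A (193 RPM on its pseudogene) and RPL12 (127 RPM). For 18 only the gene was listed. Per kb of exon the highest genes named here were RPL8 at 169 RPM, RPS25 at 118 and RPL11 at 66.5, and 235 of the 365 RPM of RPL8 lay in a region shared with MIR6850. Counting only regions that named the pseudogene and no other gene, the pseudogenes held 2262 RPM and exceeded the gene in 28 of 79. Outside the ribosome, 302 further genes had a pseudogene listed under their name, and its RPM was higher than the gene's in 157. In 71 of those 157 the gene itself was not listed. Genes listed without a pseudogene do not enter the 302, so this count is not a share over all genes. No source used here says how reads with several matching places were assigned, and the part of this in these values was not tested.

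**Figure D5:**
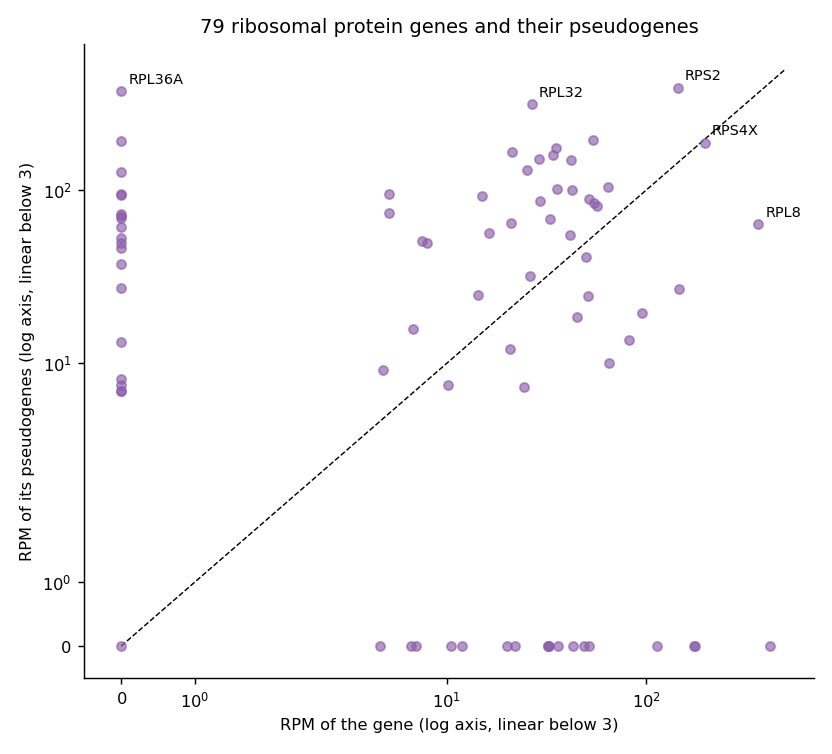
Each point is 1 of 79 ribosomal protein genes, with the RPM of the gene on the x axis and the summed RPM of its listed pseudogenes on the y axis (both axes log, linear below 3, with 0 for not listed). The dashed line marks equal values, and 48 genes lie above it, with RPL36A at 0 against 375 RPM.

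Shared regions were not confined to pseudogenes. In all, 1828 regions (14.9%) named more than 1 gene and held 29.6% of the listed RPM, and 914 of them joined genes on opposite strands, with 7.73% of the RPM. Across the autosomes the share of annotated coding genes that led a listed region ran from 13.9% on chromosome 21 (32 of 231) to 24.5%. Chromosome 1 (501 of 2043) and chromosome 6 both stood at 24.5%. Listed coding genes had a median exon length of 5.50 kb against 4.22 kb for all 19951 annotated coding genes.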

How the data were processed

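The control sample's own list of 95D RNA was analysed; the deprived libraries were not used here. Values are RPM per the file headers, as the authors deposited them. The aligner HISAT2 2.0.5 and the build hg38 were used, per the submitters' processing notes. No source used here describes region calling, its minimum, the annotation, the treatment of reads with several matching places or the use of strand. The design allowed for counts; the RPM unit was used with no log and no pseudocount.

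Below 1000 RPM, values lay within 0.00381 of a step from whole multiples of a step of 0.132 RPM. A fragment was taken as 2 such steps, after 1 step per region was taken off for intervals, which are exact Poisson (levels) or Clopper-Pearson (shares, on RPM with that step left in). Printed RPM values keep the step. Rows of equal value were joined as 1 region where their genes overlapped or lay within 2000 nt and the rows within 20 places, or 8 for the 136 of 5932 genes absent from GENCODE release 29. All 5932 identifiers matched the gene name table. A shared region went to the first class in the order of the class plot. On a simulated list of 8651 regions, 99.9% came back with the right genes.

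Named were the 25 highest genes, the 3 highest of each class, the 4 highest of each list per kb, the 10 highest coding genes per kb, the 5 with most regions and the listed markers. Pseudogene pairs, and genes named as not listed, were chosen after their values were seen. The X-inactivation transcript, its antisense and Y-linked genes were kept in totals and ranks of shares but not named, and a few further items that the rule names are not reported here. Members and lists were chosen with earlier results of these data known. Alternatives covered shared regions, a minimum of 5 RPM, the denominator, the step and the length used. Software was blastn 2.17.0, matplotlib 3.10.9, scipy 1.17.1, numpy 2.4.6 and pandas 2.3.3 under Python 3.11.15.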

Additional observations from a re-analysis of the deposited data

How the results depend on the processing

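The listed total was 221482 to 221765 RPM in the blocks of the series table, 220138 RPM with the added step taken off and 299039 RPM with every row counted. The number of genes that hold 50% of the gene RPM was 123 by the highest region only, 327 without mitochondrial genes and 191 to 248 under the other settings. With shared regions split over classes the shares were 8.84% for RNA polymerase III RNAs, 53.9% for other coding genes, 10.6% for long non-coding RNAs and 6.27% for pseudogenes. With every row counted they were 11.9%, 45.8%, 12.6% and 6.199%, and 13.7% for mitochondrial messages. At 5 RPM or above the 5 shares were 11.3% (mitochondrial messages), 9.74% (RNA polymerase III), 56.4% (other coding), 10.3% (long non-coding) and 4.62% (pseudogenes). Without regions that name no gene they were, in the same order, 11.5%, 9.87%, 59.9%, 10.5% and 4.74%, and without the 10 highest genes, which include every mitochondrial message that leads a region, 0%, 1.24%, 78.9%, 3.16% and 6.25%. With the step off, mitochondrial messages, RNA polymerase III and other coding held 11.1%, 9.52% and 57.1%. With pseudogenes placed first in the class order, an alternative chosen after seeing the data, other coding held 54.4%, long non-coding 9.37% and pseudogenes 8.19%. With shared regions split over classes, other annotated RNAs held 2.53% and small nucleolar and Cajal body RNAs 0.188%, and with every row counted 4.35% and 0.327%. List membership summed over the lists (513 listed, 502 at 5 RPM or above) and genes with 5 or more regions (568 and 471) moved by less than 1.5 times, while adhesion and matrix fell from 7 to 4 members. Per kb of the longest transcript in place of the exon union, 12 of the 23 list medians moved by over 1.5 times, all upward, with glycolysis at 21.7, snoRNA hosts at 16.2, ribosomal proteins at 13.4, translation factors at 12.1 and adhesion and matrix at 1.57. No paired analysis was possible because each group had 1 library, leaving out a replicate was not possible either, and no pseudocount was tried because no log was compared. A single library limits every value, whatever its counting interval.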

Other observations

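IRS4, an adaptor of insulin signalling encoded by a gene of 1 exon on the X chromosome, held 380 RPM (360 to 399) in 8 regions, and 96.8 RPM per kb of exon. This gene was chosen after its values were seen. SMC1A, on the same chromosome, held 381 RPM (360 to 400) in 12 regions, and HNRNPC 217 RPM in 13.

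The 4 regions at 0 fragments consist of the added step alone and stand apart from the 2563 regions of 9 to 20 fragments. The region of 1888 RPM that names no gene held 19.9% of all RPM without a gene name.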
